A study of Mus musculus with 6 samples.

Results

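Transcripts of the BBSome, a protein complex of the primary cilium, were measured in Ba/F3 cells with 2 forms of the ribosomal protein RPL10. The 9 genes described are the subunits Bbs1, Bbs2, Bbs4, Bbs5, Bbs7, Bbs9, Ttc8 and Bbip1 and the small GTPase Arl6, out of 41255 genes listed. Bbs7 was chosen by its measured difference between the groups in these same libraries, where it was nearly silent in one and abundant in the other. Its values are therefore a description and carry no test. The other 8 genes were included because they belong to the complex or recruit it, and the question was whether they shared the difference of Bbs7.

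The BBSome is a coat-like complex that carries membrane proteins, among them signalling receptors, into and out of the primary cilium. It is recruited to membranes by Arl6 in its GTP-bound state and moves with the intraflagellar transport (IFT) trains. Loss of single subunits causes Bardet-Biedl syndrome, a human disease with retinal degeneration, obesity and kidney defects. Most blood cells carry no primary cilium, although several ciliary transport proteins are also used at the immune synapse.

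Ba/F3 is a mouse lymphoid line that grows in interleukin-3. The WT group held clones 28, 29 and 36, which expressed human wild-type RPL10 from a retroviral vector, and the R98S group held clones 11, 13 and 35, which expressed the human RPL10 R98S mutant from the same kind of vector. All 6 clones also carried a short hairpin RNA against mouse Rpl10, each was grown from a single-cell colony, and cultures were kept only if the knock-down was strong. All were exposed to cycloheximide, a blocker of translation elongation, at 100 µg/ml for 5 min before polyadenylated RNA was extracted. Each clone gave 1 library, so that the spread within a group is the spread between clones, and a difference between the groups cannot be told apart from differences that arose when the few cells founding these clones were picked.

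Libraries held between 21786776 and 24204991 reads on genes. Values are normalized counts, which are reads divided by a size factor per library, and 3 reads corresponded to 2.78 to 3.22 normalized counts. Rpl10, the knock-down target in both groups, stood at 2853, 3156 and 1900 normalized counts in WT clones 28, 29 and 36, against 3028, 1883 and 2617 in R98S clones 11, 13 and 35 (log2 fold change -0.07, SE 0.23, adjusted p by limma = 0.871). Its sign changed when single clones were left out, and reads of the human transgene that align to the mouse gene cannot be told apart from its own. Of 14 genes listed for Ba/F3 cells and early B cells, the interleukin-3 receptor genes Il3ra, Csf2rb and Csf2rb2 and the B-cell receptor genes Cd79a and Cd79b were detected in all clones. Of the 6 tested, Csf2rb (log2 fold change 0.53, adjusted p = 0.0509), Csf2rb2 (0.62, adjusted p = 0.0178) and Cd79b (1.22, adjusted p = 0.0617) were higher in R98S cells, and Ptprc, the gene of CD45, was lower (-1.33, adjusted p = 0.00894). The defining markers Kit, Pax5, Vpreb1 and Igll1 had at most 3 reads in any clone. The 8 markers of ciliated epithelium summed to 40.8 to 64.0 normalized counts in WT clones and 39.8 to 61.2 in R98S clones, none of the 3 tested was called, and Foxj1, the regulator of motile cilia, had at most 1 read. The 6 T-cell markers summed to 13.97 to 65.0 in WT and 46.9 to 92.9 in R98S clones, Cd4 had at most 2 reads and Cd8b1 none, and Cd3d was the 1 tested gene and was higher (log2 fold change 2.17, adjusted p = 0.0112). The untested Cd3e and Cd3g had their higher values in WT, with 1.02, 2.15 and 3.0 and with 3.07, 3.22 and 43.0 normalized counts in those clones and at most 0.925 and 1.85 in the R98S clones. The 5 myeloid markers found summed to 32.8 to 62.0 in WT and 5.63 to 8.33 in R98S clones, Ly6g had no read, and Lyz2 was the 1 tested gene and was lower (log2 fold change -3.34, adjusted p = 0.0366). The part of these shifts in the results on the BBSome was not tested.

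Because Bbs7 and its partners differed so much in level, the sequence before the start of 4 of them is shown first, for the gene that was on in one group, for both subunits with the largest decreases, and for the subunit with the highest level per kb in WT cells. Each runs 5′ to 3′ along the gene on build GRCm38.p6 from RefSeq, and ends just before the outermost annotated start. Capitals mark an X-box in Bbs7 (the inverted repeat bound by RFX transcription factors, searched as the half-site GTTNCC, 2 free bases and the reverse complement of the half-site) and GC boxes in Bbip1 (GGGCGG or its complement).
Bbs7, chr3:36613493-36613639, minus strand: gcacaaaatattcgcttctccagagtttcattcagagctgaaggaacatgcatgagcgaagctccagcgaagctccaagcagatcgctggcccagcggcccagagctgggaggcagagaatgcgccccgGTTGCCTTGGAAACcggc
Bbs4, chr9:59353509-59353658, minus strand: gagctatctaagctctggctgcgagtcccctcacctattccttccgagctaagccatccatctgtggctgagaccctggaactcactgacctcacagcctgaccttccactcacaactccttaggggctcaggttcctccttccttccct
Ttc8, chr12:98920387-98920536, plus strand: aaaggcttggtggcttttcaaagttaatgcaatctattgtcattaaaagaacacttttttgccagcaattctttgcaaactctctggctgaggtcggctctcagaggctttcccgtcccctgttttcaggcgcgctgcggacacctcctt
Bbip1, chr19:53944628-53944777, minus strand: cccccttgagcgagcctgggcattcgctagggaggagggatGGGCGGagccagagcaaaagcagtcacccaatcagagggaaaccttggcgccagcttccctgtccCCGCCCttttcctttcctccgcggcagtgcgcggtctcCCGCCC
The X-box of Bbs7, GTTGCCTTGGAAAC at chr3:36613497-36613510, began 121 bases before the RefSeq start. The motif was picked after the Bbs7 promoter had been read. It was present, on both strands by its symmetry, in 148 of 32851 promoter windows of the same length (0.451%), each running from 250 bases before to 50 bases after a start. Of the 9 genes, Bbs7 alone held it. With the looser half-site GTNNCC, found in 1.88% of promoters and including every match of the stricter form, 3 of the 9 genes had a match, and those of Bbs4 (GTCGCCCGGGAAAC) and Bbs1 (GTTGCCAAGGCGAC) lay inside the transcribed part. An E-box (CACGTG, 7.15% of promoters) was found in Bbs7 alone, and a GC box (35.7% of promoters) in 5 of the 9 genes. The Bbs7 window held 22 CG dinucleotides, fewer than those of Bbs2 (26), Arl6 (24 and 26 at its 2 starts), Bbip1 (24) and Bbs9 (23), and all 9 genes were above the median of 7 over all promoters. These are matches of letters, and binding of a factor was not measured.

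Bbs7 encodes one of the beta-propeller subunits of the complex and, with Bbs2 and Bbs9, forms the core on which the other subunits assemble. It lies on the minus strand of chromosome 3 (36573142 to 36613477, GRCm38, 19 exon blocks). It had 2, 2 and 6 reads in WT clones 28, 29 and 36, against 8695, 5790 and 6591 reads in R98S clones 11, 13 and 35. In normalized counts these were 2.05, 2.15 and 6.0 against 8158, 5909 and 6098. The WT clones were at or within a few reads of the 3-read floor, and every R98S clone was higher than every WT clone. The means were 3.40 ± 2.26 and 6722 ± 1247 normalized counts (SD, n = 3). Over the summed reads, 10 in WT and 21076 in R98S, the ratio was 1959, with an exact 95% interval of 1065 to 4086 that covers counting error only. Clones of the R98S group differed among themselves by far less than the groups did, and Bbs7 was chosen for such a difference. In bulk RNA, fewer cells with a transcript and less of it per cell cannot be told apart.

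**Figure D1:**
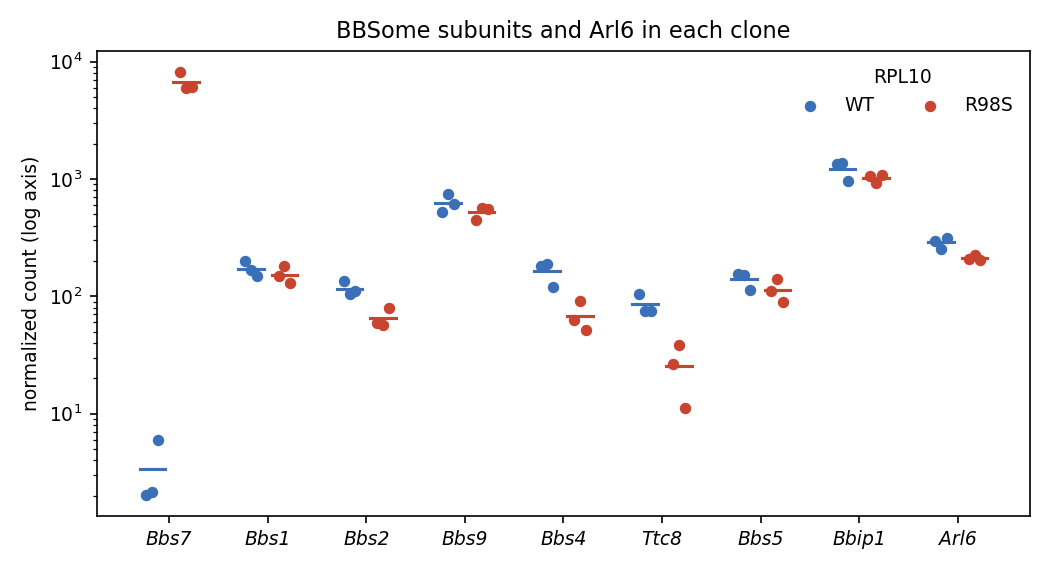
Normalized counts (log axis) of the 9 genes in each clone. Points are the 3 clones of each group and short lines are their means, and Bbs7 rises from at most 6.0 in WT to at least 5909 in R98S clones while none of the other 8 genes was called higher.

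None of the other 8 genes was called higher in R98S cells. With limma on log2(normalized count + 1) and an adjusted p under 0.1 over 11550 tested genes, 3 of the 8 fell and the other 5 did not pass. Among all tested genes, 23.9% were called in either direction, 13.1% lower and 10.7% higher. At an unadjusted p under 0.05 the count was 0 higher and 4 lower, where 14.6% of all tested genes were higher and 17.1% lower. At an adjusted p under 0.1, edgeR and DESeq2 on the recovered reads each gave 0 higher and 3 lower. All 8 fold changes were below 0, with a median of -0.37, whereas 50.9% of all tested genes were below 0 with a median of -0.01. For 4 of the 8, Bbs2, Bbs4, Ttc8 and Arl6, every R98S clone was lower than every WT clone, a pattern shown by 19.2% of tested genes. All 8 passed the filter on low values, a mean of at least 10 normalized counts over the 6 libraries.

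**Figure D2:**
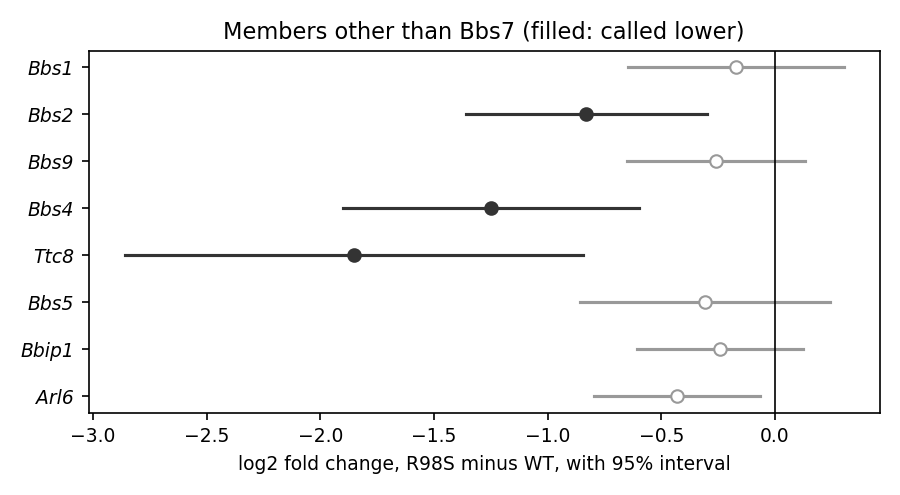
Log2 fold change (R98S minus WT) with its 95% interval for the 8 genes other than Bbs7. Filled points passed the test, and the highest upper end of an interval is 0.30, for Bbs1.

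Bbs2, the beta-propeller subunit that pairs with Bbs7 in the core (chromosome 8, 94067954 to 94098928, minus strand), measured 134, 104 and 110 normalized counts in WT clones 28, 29 and 36, against 59.1, 57.2 and 79.6 in R98S clones 11, 13 and 35. The groups did not overlap, and Bbs2 fell in R98S cells (log2 fold change -0.83, SE 0.23, adjusted p by limma = 0.0476). The call was lost without WT clone 28 (log2 fold change -0.72, adjusted p = 0.180), WT clone 29 (-0.90, adjusted p = 0.104) or R98S clone 11 (-0.77, adjusted p = 0.131). Bbs9, the third core subunit (chromosome 9, 22475715 to 22888280, plus strand), had 523, 740 and 611 normalized counts in WT and 446, 560 and 553 in R98S clones. Its groups overlapped, and its log2 fold change of -0.26 (SE 0.17, adjusted p = 0.335) had a 95% interval from -0.65 to 0.13. Neither core partner of Bbs7 was called higher.

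Bbs1, the beta-propeller subunit that binds Arl6 (chromosome 19, 4886878 to 4906628, minus strand), gave 199, 168 and 148 normalized counts in WT and 148, 181 and 129 in R98S clones. R98S clone 13 lay within the WT range, as did R98S clone 11 at its lower edge, and the difference did not pass the test (log2 fold change -0.17, SE 0.21, adjusted p = 0.606, 95% interval -0.65 to 0.30). Arl6, the GTPase that brings the complex to membranes (chromosome 16, 59612949 to 59639391, minus strand), gave 296, 254 and 314 normalized counts in WT and 208, 225 and 204 in R98S clones. The groups did not overlap, but the adjusted p of 0.105 missed the threshold (log2 fold change -0.43, SE 0.16). It passed with a minimum mean of 50 (adjusted p = 0.0980), without a variance trend (adjusted p = 0.0761) and without R98S clone 13 (adjusted p = 0.0938).

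Bbs4 and Ttc8 are the subunits built of tetratricopeptide repeats. Bbs4 (chromosome 9, 59321990 to 59353508, minus strand) gave 181, 187 and 120 normalized counts in WT and 62.9, 90.8 and 51.8 in R98S clones. It fell in R98S cells (log2 fold change -1.25, SE 0.28, adjusted p by limma = 0.0253), the groups did not overlap, and it was called in all 17 settings. Its exons share 194 bases with Adpgk on the opposite strand, which did not pass the test (log2 fold change 0.03, adjusted p = 0.897). Ttc8 (chromosome 12, 98920574 to 98983238, plus strand) had 105, 75.2 and 75.1 normalized counts in WT and 26.3, 38.8 and 11.1 in R98S clones. It fell by 1.85 on the log2 scale (SE 0.44, adjusted p = 0.0288), with the lowest value in R98S clone 35, and the call was lost without WT clone 28 (-1.69, adjusted p = 0.101). Without WT clone 28, Bbs4 was the only one of the 8 still called.

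Bbs5, a subunit with lipid-binding pleckstrin homology folds (chromosome 2, 69647171 to 69667571, plus strand), had 155, 153 and 112 normalized counts in WT and 111, 140 and 89.7 in R98S clones. The groups overlapped (log2 fold change -0.31, SE 0.24, adjusted p = 0.415, 95% interval -0.86 to 0.24). Bbip1, the small subunit (chromosome 19, 53929861 to 53944627, minus strand), gave 1336, 1370 and 965 normalized counts in WT and 1054, 929 and 1090 in R98S clones. WT clone 36 lay within the R98S range, and the log2 fold change was -0.24 (SE 0.16, adjusted p = 0.333, 95% interval -0.61 to 0.12). Without WT clone 36 it was -0.41 and passed (adjusted p = 0.0805). Bbip1 shares 97 exon bases with Shoc2 on the opposite strand, which was lower (log2 fold change -0.39, adjusted p = 0.0824). Whether the counting used the strand of the reads is not given in the sources used here, so reads in shared bases cannot be told apart.

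Levels were compared between genes as normalized counts per kb of annotated exon. The length counts every annotated exon of a gene, whether used in these cells or not, from 2445 bases for Bbs5 to 7674 for Bbs1 among the subunits. Part of the order between genes can come from these lengths. In WT cells the order was Bbip1 (278 ± 51.1), Arl6 (137 ± 14.8), Bbs9 (100.1 ± 17.5), Bbs5 (57.2 ± 9.82), Bbs2 (35.1 ± 4.79), Bbs4 (27.0 ± 6.14), Ttc8 (22.5 ± 4.63), Bbs1 (22.3 ± 3.32) and Bbs7 (0.631 ± 0.418, SD, n = 3). The ranges of Bbs4 and Ttc8, and of Ttc8 and Bbs1, overlapped between neighbours. In R98S cells the order was Bbs7 (1247 ± 231), Bbip1 (233 ± 19.2), Arl6 (101 ± 5.08), Bbs9 (83.3 ± 10.3), Bbs5 (46.4 ± 10.3), Bbs1 (19.9 ± 3.43), Bbs2 (19.7 ± 3.75), Bbs4 (11.3 ± 3.33) and Ttc8 (6.71 ± 3.67). Bbs1 and Bbs2 overlapped there, as did Bbs4 and Ttc8. Bbs7 thus went from the lowest place to the highest, while the order of the other 8 changed only among the lowest 4. Among the 10999 tested genes with an annotated length, Bbs7 went from rank 10939 to rank 841. Nothing is read from its places and ranks, because Bbs7 was chosen for this difference. It also passed the filter of a mean of at least 10 only through its R98S clones (WT mean 3.40).

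Per kb, Bbs7 made up 0.0660%, 0.0668% and 0.244% of the summed level of the 8 subunits in WT clones 28, 29 and 36. The same share was 78.7%, 72.1% and 72.7% in R98S clones 11, 13 and 35. The other 7 subunits together stood at 542 ± 76.1 normalized counts per kb in WT cells, against 420 ± 8.15 in the R98S group (SD, n = 3). The complex is thought to hold its subunits in single copies, and the transcript levels by this measure were far from even in either group. The part of the exon lengths in this was not tested.

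**Figure D3:**
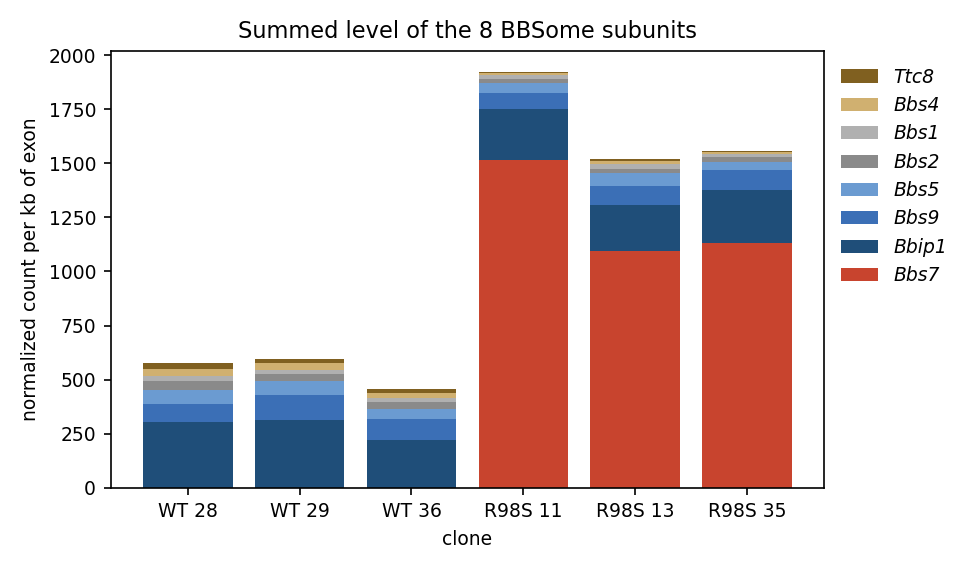
Normalized counts per kb of exon, stacked over the 8 BBSome subunits, in each clone. Bbs7 (red) makes up at most 0.244% of the bar in WT clones and 72.1% to 78.7% in R98S clones, while the sum of the other 7 ranges from 411 to 596.

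The genes around Bbs7 were examined to see whether the difference reached its neighbours. Of the 5 nearest genes on each side, 3 were expressed enough to be tested and 2 were called higher, beside 10.7% of all tested genes. Ccna2, the cyclin of S phase and mitotic entry, lies 991 bases beyond the end of Bbs7 on the same strand. It gave 5364, 5145 and 7492 normalized counts in WT clones 28, 29 and 36, against 10503, 8069 and 8814 in R98S clones 11, 13 and 35. Every R98S clone was above every WT clone, and Ccna2 rose by 0.62 on the log2 scale (SE 0.17, adjusted p by limma = 0.0440). Exosc9, a subunit of the RNA exosome 7414 bases beyond Bbs7, shares 510 exon bases with Ccna2 on the opposite strand. It had 595, 568 and 594 normalized counts in WT and 990, 727 and 760 in R98S clones (log2 fold change 0.48, SE 0.15, adjusted p = 0.0629). The groups did not overlap for either gene, as for 4307 of all 11550 tested genes, counted in either direction. Both differences were small beside that of Bbs7. Both calls were lost without WT clone 28 (Ccna2 adjusted p = 0.146, Exosc9 0.165), WT clone 29 (0.138 and 0.171) or R98S clone 11 (0.139 and 0.156), and that of Exosc9 also without WT clone 36 (0.103).

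On the other side, the nearest tested gene, 4932438A13Rik, lies 249626 bases away and did not pass the test (log2 fold change -0.26, SE 0.15, adjusted p = 0.274). Also on this side, Gm12377 had 1 read in all, and Gm12376 and Gm12531 had 0 reads. On the side of Ccna2, Gm11550 had 1 read in all, and Gm11548 and Gm11549 had 0 reads. Anxa5 and Cetn4 lie outside these nearest genes and were chosen after their values were seen. Anxa5, 97247 bases away on the side of Ccna2, was lower (log2 fold change -0.77, adjusted p = 0.0803). Cetn4, 694271 bases away on the side of 4932438A13Rik, was also lower (-1.35, adjusted p = 0.00771).

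**Figure D4:**
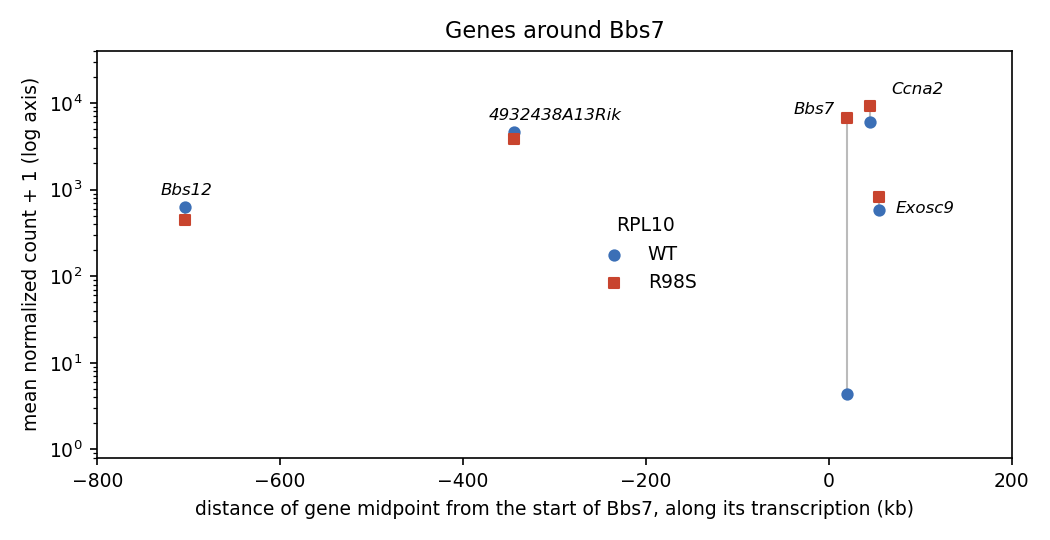
Mean normalized count + 1 (log axis) in WT and R98S clones for Bbs7, the 3 tested genes among its neighbours and Bbs12, by distance of the gene's midpoint from the Bbs7 start in kb. Bbs7 shows a gap of more than 3 decades, and Ccna2 and Exosc9 are 1.52 and 1.41 times higher in R98S clones.

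Assembly of the BBSome core needs the chaperonin-like proteins Mkks, Bbs10 and Bbs12, which act with the CCT chaperonin. Of 11 tested genes of this group, 1 was called, and it was lower, beside 13.1% of all tested genes called lower and 10.7% higher. Bbs12, which lies 699076 bases from Bbs7 on chromosome 3, had 671, 600 and 589 normalized counts in WT and 524, 366 and 433 in R98S clones (log2 fold change -0.50, SE 0.16, adjusted p by limma = 0.0724). The call was lost when any 1 clone other than R98S clone 11 was left out, with adjusted p up to 0.232, and without the filter (0.111). Its exons overlap those of Cetn4 by 32 bases on the opposite strand. Bbs10 had 80.9, 94.6 and 73.1 in WT and 117, 112 and 101 in R98S clones, which did not overlap but did not pass (log2 fold change 0.41, adjusted p = 0.210). Mkks had a log2 fold change of 0.27 (adjusted p = 0.237). The 8 CCT subunit genes were all uncalled.

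Among 16 genes for partners of the complex and for other Bardet-Biedl syndrome loci, 3 were called, all lower, beside 13.1% of all tested genes. Pcm1, a scaffold of centriolar satellites where the BBSome collects, went from 6262, 6067 and 6925 normalized counts in WT to 4039, 4699 and 3850 in R98S clones (log2 fold change -0.62, SE 0.11, adjusted p = 0.0130). Arl13b, a ciliary GTPase, fell by 0.59 on the log2 scale (adjusted p = 0.0276). Lztfl1, which restrains entry of the BBSome into cilia, had a log2 fold change of -0.45 with an adjusted p of 0.0997, at the edge of the threshold. Arl3, a GTPase that releases lipidated cargo in cilia, had -0.72 and an adjusted p of 0.105. Ift27, the IFT subunit that helps the BBSome leave cilia, was at -0.03 (adjusted p = 0.955). Cep290 (0.29, adjusted p = 0.315), Trim32 (0.42, adjusted p = 0.126) and Rab3ip (0.26, adjusted p = 0.273) did not pass.

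The IFT-B particle, which moves outward along the cilium, had 13 of 17 genes tested, with 1 higher and 2 lower. Of all tested genes, 10.7% were higher and 13.1% lower. Ttc26 went from 73.7, 91.3 and 99.1 normalized counts in WT to 33.8, 51.0 and 32.4 in R98S clones (log2 fold change -1.17, SE 0.27, adjusted p = 0.0275). Ift80 fell by 0.85 (adjusted p = 0.0252), Traf3ip1 rose by 0.39 (adjusted p = 0.0893), and Ift20 was at 0.09 (adjusted p = 0.690). Of 6 tested genes of the IFT-A particle, which returns cargo to the base, 2 fell, beside the same 13.1% of all tested genes. These were Wdr19 (log2 fold change -1.52, SE 0.37, adjusted p = 0.0311) and Ift122 (-0.89, adjusted p = 0.0647), and the clones of the 2 groups overlapped for Ift122.

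Among 10 genes of the ciliary motors, 1 rose and 3 fell, beside 10.7% and 13.1% of all tested genes. The same shares stand beside the transition zone and the receptors below, and groups of this size are too small to read against them. Dync2li1, a light intermediate chain of the retrograde dynein, went from 113, 123 and 71.1 normalized counts in WT to 29.1, 18.4 and 13.9 in R98S clones (log2 fold change -2.29, SE 0.36, adjusted p = 0.00708). Kif17, a kinesin, went the other way, from 48.1, 25.8 and 46.0 to 322, 142 and 192 (log2 fold change 2.39, SE 0.36, adjusted p = 0.00666). Kif3a, the anterograde kinesin subunit, was lower (-0.75, adjusted p = 0.0644), as was Wdr60 (-0.60, adjusted p = 0.0534). Of 14 tested genes of the transition zone, the gate at the base of the cilium, 2 were called and both fell, among them Ahi1 (log2 fold change -1.16, SE 0.21, adjusted p = 0.0120). Of 3 tested receptor genes, Smo, the Hedgehog signal transducer, rose from 130, 147 and 122 normalized counts in WT to 342, 301 and 356 in R98S clones (log2 fold change 1.32, SE 0.17, adjusted p = 0.00324).

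Over these 7 groups, 73 of 86 genes found were tested, 3 rose and 13 fell. This was 21.9%, near the 23.9% of all tested genes, and 44 of the 73 had a log2 fold change below 0, with a median of -0.06. By group, the median was -0.46 for motors (8 of 10 below 0), -0.40 for IFT-A (3 of 6) and -0.32 for IFT-B (10 of 13). It was -0.32 for the transition zone (9 of 14), -0.12 for partners (9 of 16), and 0.13 for chaperonins (4 of 11) and receptors (1 of 3). A median near the -0.37 of the 8 members other than Bbs7 was therefore also seen in other ciliary groups. Of the 16 calls, those of Pcm1, Ttc26, Ift80, Kif17, Dync2li1, Ahi1 and Smo held in all 17 settings. That of Arl13b was lost without WT clone 29 (adjusted p = 0.110) and that of Wdr19 without R98S clone 11 (0.107). The calls of Bbs12, Lztfl1, Traf3ip1, Ift122, Kif3a and Wdr60 were each lost without WT clone 28 (adjusted p = 0.232, 0.301, 0.202, 0.176, 0.173 and 0.180) and without 2 or more of the other clones in turn.

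**Figure D5:**
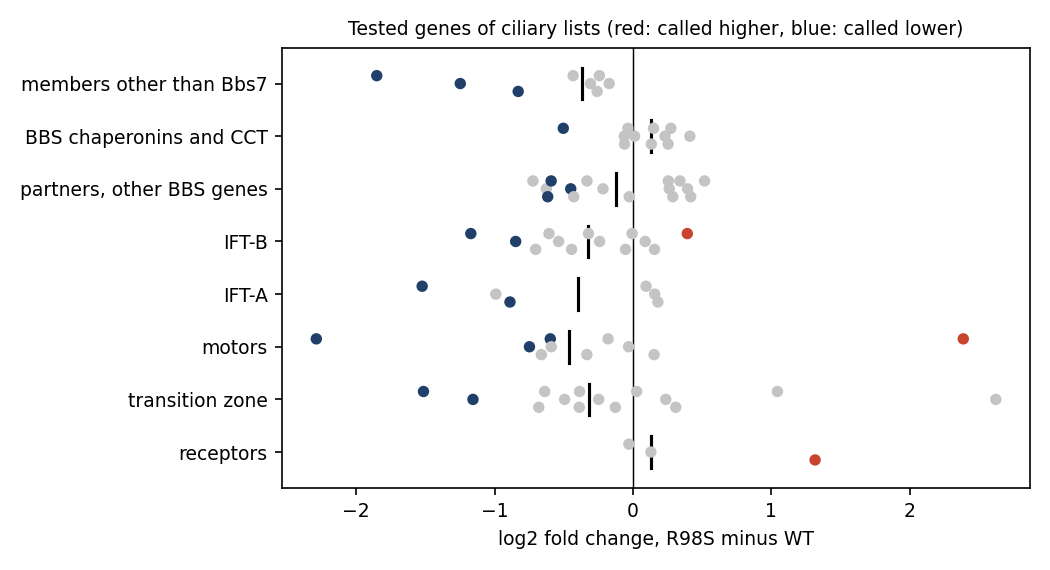
Log2 fold change (R98S minus WT) of the tested genes in each ciliary group, with red for called higher, blue for called lower, grey for not called, and a black bar at each group's median. The 8 members other than Bbs7 all lie below 0 (median -0.37). The other 7 groups spread to both sides, with medians from -0.46 (motors) to 0.13 (chaperonins and receptors).

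The RFX transcription factors, which bind the X-box of many ciliary genes, were examined beside the Bbs7 promoter. Rfx2 was the 1 of 4 tested genes called, beside 23.9% of all tested genes. It went from 318, 304 and 515 normalized counts in WT to 219, 253 and 104 in R98S clones (log2 fold change -1.04, SE 0.35, adjusted p by limma = 0.0858). This call was lost in 9 of the 16 alternative settings, among them any 1 clone other than R98S clone 13 left out (adjusted p from 0.126 to 0.196). Rfx1 (-0.10, adjusted p = 0.721), Rfx5 (0.04, adjusted p = 0.881) and Rfx7 (0.05, adjusted p = 0.796) did not pass, and Rfx3, Rfx4 and Rfx6 had at most 7 reads in any clone. Of 90 genes with the X-box in their promoter window, 50 were tested, with 9 higher and 9 lower, beside 10.7% and 13.1% of all tested genes. The 9 higher include Bbs7, which was chosen by its difference and whose promoter led to the motif, so nothing is read from these counts. The other ciliary genes with it were Cct2, Mks1, Rab3ip, Ttc26, Ttc30a2, Ahi1 and Tctn1. Of these, Ttc30a2 had 0 reads and was not tested, Ttc26 and Ahi1 were lower, and the rest did not pass. They are too few to read against the 13.1% of all tested genes that were lower.

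Genes whose profile over the 6 libraries was most like that of Bbs7 were sought among all tested genes by the root mean square difference of log2(normalized count + 1) after each gene's mean was subtracted. The closest was Gm10451, annotated as a lincRNA, on chromosome 12 (difference 1.37), followed by Lpgat1 on chromosome 1 (1.42), Lgals7 on chromosome 7 (1.87), Cytip on chromosome 2 (1.95) and Clnk on chromosome 5 (2.05). Gm10451 had no read in any WT clone and 258, 249 and 312 normalized counts in R98S clones 11, 13 and 35. Lpgat1 had 3.07, 1.07 and 1.0 in WT and 862, 548 and 821 in R98S clones. None of the 5 lies on the chromosome of Bbs7, and none is a BBSome subunit or in a ciliary list. The search finds genes with a very large rise in R98S cells. All 8 other members were below 0 and no tested ciliary gene exceeded a log2 fold change of 2.62, so their absence was fixed in advance. For their chromosomes, 5 genes are too few to read anything from.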

How the data were processed

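Polyadenylated RNA of 6 Ba/F3 clones (3 WT, 3 R98S, groups from the labels) was sequenced with a stranded kit. The deposited table gives per gene a signal, which is the read count that the authors divided by a DESeq2 size factor per library. They had removed ribosomal and transfer RNA reads with Bowtie2, aligned the rest to mm10 (GRCm38) with TopHat and kept primary, well-mapped alignments. HTSeq and SAMtools are named in the submitters' processing notes. The annotation and strand setting are not given in the sources used here. Multi-mapping reads were thus thinned in gene families. Dividing each library by its smallest step gave whole reads for 100% of values.

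Tests used limma 3.58.1 in R 4.3.3 (eBayes with trend, two-sided) on log2(normalized count + 1), for 11550 genes with a mean of at least 10, with Benjamini-Hochberg adjustment and a threshold of 0.1. Fold changes of low genes are understated by the pseudocount of 1. The p-values measure the spread between clones. edgeR 4.0.16 and DESeq2 1.42.0 on the recovered reads were alternatives, with other pseudocounts (0.5, 5), filters, scalings and each clone left out. The fit was tested on simulated data. Coordinates and exon lengths came from GENCODE (GRCm38) by symbol, and promoters from RefSeq. The members and lists were chosen with earlier results of these data known. Named genes were the 9 members, 5 neighbours on each side of Bbs7, Rpl10, a fixed set of BBS and RFX genes, up to 4 called genes per list and direction, and the 5 profiles most like Bbs7. A few genes that this rule names are not reported here.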

Additional observations from a re-analysis of the deposited data

How the results depend on the processing

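No paired analysis was possible because the clone numbers differ between the groups. Of the 8 members other than Bbs7, 3 or 4 were called in all settings that kept every clone, 1 to 4 with 1 clone left out (1 without WT clone 28), and all 8 were below 0 in each of the 17 settings. At an adjusted p under 0.05, calls numbered 1722 over all genes, 10 among the other ciliary genes and 1 near Bbs7. With 1 clone left out they ranged from 1322 to 3213, from 10 to 26 and from 0 to 2. The ends of the range for the ciliary genes came without WT clone 28 (10) and without R98S clone 13 (26). Member fold changes kept direction and call in 135 of 144 comparisons, lost the call in 4, gained it in 4 and reversed in 0. These comparisons cover all 9 genes and so include Bbs7, which has no call and whose direction followed from how it was chosen. The losses and gains are all of other members. The fold change of Bbs7 was 9.66 with a pseudocount of 5 and otherwise up to 11.07. Fold changes near 0 turned sign when clones were left out, with ranges of -0.29 to 0.13 for Rpl10, -0.23 to 0.19 for Ift27, -0.23 to 0.045 for Rfx1, -0.055 to 0.15 for Rfx5 and -0.030 to 0.10 for Rfx7, and Ift27 was at 0.014 with equal upper quartiles. The causes were not tested. Depth limits Bbs7 in WT clones, where 2 to 6 reads fix its level only loosely, and the untested genes. The counting interval given for Bbs7 is that of the ratio of summed reads, and none was computed for its WT level.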

Other observations

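Among the ciliary genes, 2 that were not called had 1 clone far from the rest, and both were chosen after their values were seen. Cc2d2a, a transition zone gene, had 380 normalized counts in R98S clone 35, 9.38 in R98S clone 11, 1.02 in R98S clone 13 and 1.02, 3.22 and 3.00 in WT clones 28, 29 and 36 (log2 fold change 2.62, SE 1.63, adjusted p by limma = 0.306). Hspb11, an IFT-B gene, had 58.3 in R98S clone 35, 531 in R98S clone 13 and 259 in R98S clone 11, against 327, 239 and 449 in WT clones (log2 fold change -0.70, SE 0.69, adjusted p = 0.520). Both genes therefore separated R98S clone 35 from the other R98S clones, in opposite directions. Bbs7, which was chosen for its difference between the groups, was at a like level in all 3.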
